A study of Mus musculus with 16 samples.

Results

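The cytosolic ribosomal protein genes of mouse were examined in the cerebellum and hippocampus of wild-type mice and of mice that carry mutant Twinkle as a transgene. Members were all genes with a single symbol in the array's platform annotation made of Rpl or Rps and a number, optionally followed by a, x or l, together with Rplp0, Rplp1, Rplp2 and Rpsa. Pseudogenes and the Rps6k kinases were left out. The rule used names and no measured value, and it took 46 of the 18168 genes measured, 24 of the large subunit and 22 of the small subunit. They rested on 100 probe sets, the groups of short probes that an Affymetrix array reads as 1 value. Of the members, 23 had 1 probe set and 23 had several, up to 6. A further 110 probe sets listed a ribosomal protein gene together with other genes, so they name no gene here. They covered 43 ribosomal protein symbols, of which 28, Rplp1 and Rps27a among them, had no probe set of their own and were no members.

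The 16 arrays formed 4 groups of 4 biological replicates, mutant and wild type in each region. Mutants overexpressed mutant Twinkle, the helicase that unwinds mitochondrial DNA. The line serves to model progressive external ophthalmoplegia, in which eye muscles weaken and mitochondrial DNA carries deletions. In order of replicate number, mutants were 24, 24, 21 and 21 months old and wild types 26, 24, 21 and 23 months, in both regions. The labels give neither the strain nor the promoter of the transgene, and the labels do not say which hippocampus and cerebellum came from the same animal. P-values therefore measure the spread between these samples. The hippocampus samples carry a description entry that names the other region, but hippocampus stands in their title, source and tissue entries and was followed.

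Cytosolic ribosomes read messenger RNAs of nuclear genes. The large subunit joins amino acids, the small subunit decodes the message, and each ribosome needs 1 copy of nearly every ribosomal protein, so the genes are usually transcribed at high and matched levels. Their messenger RNAs typically begin with a terminal oligopyrimidine tract, a C followed by a run of C and T in the gene, through which the mTOR kinase controls their translation. In neurons the proteins are made for ribosomes in the cell body and also for repair of ribosomes in axons and dendrites.

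Start sites are shown for some members that had the smallest p-values of their direction among those with an entry in the RefSeq promoter table. They are Rpl27a, Rps27, Rpl13a and Rpl35 for higher values in mutant cerebellum and Rplp0 and Rpl37 for lower values in mutant hippocampus. Each window holds 15 bases before and 15 bases from the annotated start, 5′ to 3′ on the gene's strand, in build GRCm38.p6. Capitals mark the longest run of a C and at least 4 following pyrimidines, with the C within 10 bases of the start. The runs of Rpl27a and Rpl13a go on past the end of the window, with full lengths of 20 and 14 bases. Only the gene's strand was searched, and other such runs in a window are not marked.
Rpl27a, chr7:109519180-109519209, plus strand: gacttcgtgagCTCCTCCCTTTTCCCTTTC
Rps27, chr3:90213634-90213663, minus strand: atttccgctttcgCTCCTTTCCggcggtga
Rpl13a, chr7:45128731-45128760, minus strand: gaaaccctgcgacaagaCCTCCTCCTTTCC
Rpl35, chr2:39005117-39005146, minus strand: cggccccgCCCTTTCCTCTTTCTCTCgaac
Rplp0, chr5:115559452-115559481, plus strand: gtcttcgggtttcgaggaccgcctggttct
Rpl37, chr15:5116598-5116627, plus strand: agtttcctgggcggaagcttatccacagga
Of the 46 members, 40 had an entry, and 26 of these (65%) held such a run within 10 bases of a listed start. Among the 27025 genes of the table the share was 34.4%. A stricter count took only starts whose first base is a C followed by at least 4 pyrimidines. It held for 8 of 40 members (20%) against 3.01% of all genes. An annotated start can lie some bases from the true one, and a window without capitals says only that these letters are not in it. In the cerebellum the median genotype difference was 0.045 for the 26 members with a run near the start and 0.053 for the 14 without. In the hippocampus the medians were -0.0095 and -0.0013. The windows shown leave out lower values in mutant cerebellum and higher values in mutant hippocampus. For these, Rpl3l and Rpl39 in that order had the smallest p-values among members with an entry, and both held a run. The windows shown therefore cannot tell whether a run goes with a direction.

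Every deposited value was a log value, taken here as log2, and was centred on the middle of the 8 arrays of its region. All 44904 probe sets analysed had a median within 1e-05 of 0 over the 8 arrays of each region. A value of 0.1 in a member is thus a difference from that region's middle array and no level, so members cannot be ranked by abundance, and the labelled tissue cannot be checked from levels of its markers. If the base were e, differences would be multiplied by 1.44.

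Several arrays stood apart in other measures. On wild-type hippocampus replicate 1 the markers of cerebellar granule neurons had a mean of 2.11 and those of Purkinje cells 1.67. On mutant hippocampus replicate 1 these means were 0.70 and 0.45, and on the remaining hippocampus arrays at most 0.20 and 0.051. Twnk, the gene of the transgene, had 1 probe set and differed by 0.063 (SE 0.052, adjusted p = 0.915) in the cerebellum and 0.064 (SE 0.052, adjusted p = 0.766) in the hippocampus. Neither passed the test, and the labels do not say whether its probes bind the transgene's message. Mean levels of choroid plexus markers ranged from -0.45 to 2.13 over the hippocampus arrays, with mutant replicate 4 highest, and from -1.48 to 0.70 over the cerebellum arrays, with mutant replicate 4 lowest. Meningeal markers were highest on mutant replicate 1 in the hippocampus, at 0.94 against at most 0.11 on the other 7 arrays. In the cerebellum they were highest on mutant replicate 2, the array with the highest median over members, at 0.39 against at most 0.11. The 5 blood cell markers measured separated the genotypes in both regions by their mean. It ranged from -0.087 to -0.032 in mutant and 0.035 to 0.27 in wild-type cerebellum, and from -0.20 to -0.045 in mutant and 0.045 to 0.54 in wild-type hippocampus. The genotype difference was above 0 for 2 of these 5 markers in each region, so the direction of the mean was not shared by all 5. Cerebellar differences of these markers ran from -0.97 to 0.092, with a median of -0.024. Hippocampal ones ran from -1.19 to 0.17, with a median of -0.099. Ependymal markers ranged from -0.042 to 0.49 in mutant and from -0.29 to -0.015 in wild-type hippocampus, with the 2 groups overlapping. Microglial markers ranged from -0.14 to 0.31 in mutant and -0.19 to 0.12 in wild-type cerebellum. The part of these cell types in the members' values was not tested.

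The members were among the steadier genes measured. Centred values hold no level, so probe sets of weak signal could not be left out of the comparison with all genes. Whether signal strength bears on the members' steadiness was not tested. Of 736 member values, 81.4% lay within 0.1 of 0, against 69.6% of the values of all genes. The median standard deviation within a group was 0.072 for members and 0.10 for all genes in the cerebellum, and 0.059 and 0.099 in the hippocampus. Of the 46 members, 33 lay under the median of all genes in the cerebellum and 37 in the hippocampus. The steadiest member over the 8 cerebellum arrays was Rpl19, a large-subunit protein, with a range of 0.085. In the hippocampus it was Rps14, a small-subunit protein, with a range of 0.073. The widest members were Rpl27a (range 0.57), Rpl37 and Rps16 in the cerebellum and Rps4l (range 0.57), Rpl14 and Rps27l in the hippocampus.

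**Figure D1:**
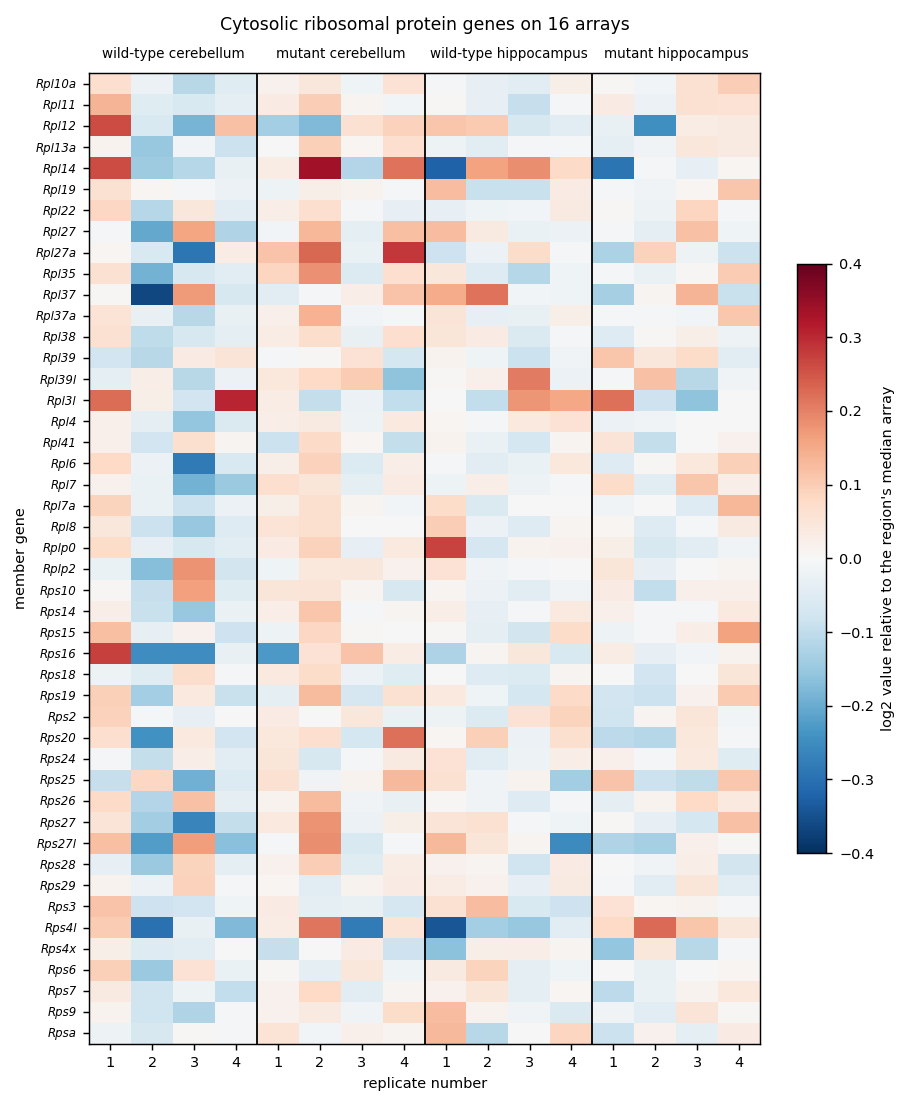
Log2 value of each of the 46 members (rows) on each of the 16 arrays (columns, by group and replicate number), centred on the median of the region's 8 arrays; red is above and blue below 0, with the colour scale ending at 0.4 on either side. Most cells are pale, wild-type cerebellum replicate 2 is blue for most members, and Rps4l is blue on all 4 wild-type hippocampus arrays and red on all 4 mutant ones.

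The first question was whether the genotype difference in the cerebellum reached the ribosomal protein genes. No member passed the test, and most members had small positive differences. The difference, mutant minus wild type throughout, was above 0 for 39 of 46 members, against 53.6% of all genes, with a median of 0.054 for members and 0.0074 for all genes. Large-subunit members had a median of 0.061 with 20 of 24 above 0, and small-subunit members 0.042 with 19 of 22 above 0. In limma, a linear model with a shared estimate of the spread, 0 of 46 members and 0 of 18168 genes (0%) had an adjusted p under 0.05, with Benjamini-Hochberg adjustment over all genes. At an unadjusted p under 0.05 there were 4 members, all higher in mutants, and 979 genes (5.39%). The count of members was 9 without wild-type replicate 1, 7 without mutant replicate 3, 1 without mutant replicate 2 and 0 without mutant replicates 2 and 4. It was 2 with the replicate number as a block, with robust variance or with each region fitted alone. The smallest adjusted p of a member was 0.884. In 0 members did the mutants all lie above the wild types (1.44% of all genes) or all below (1.02%).

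The positive median rested in part on 1 wild-type array. The median over the 46 members was 0.025 on mutant replicate 1, with 33 members above 0, 0.067 on replicate 2 with 36, -0.0085 on replicate 3 with 20 and 0.020 on replicate 4 with 28. On the wild-type arrays it was 0.053 with 37 members above 0, -0.082 with 4, -0.037 with 18 and -0.040 with 6. Wild-type replicate 1 lay as high as the mutants, and wild-type replicate 2 was the lowest of the 8. These medians averaged 0.026 ± 0.031 for the mutants and -0.026 ± 0.057 for the wild types (SD, n = 4), so the groups overlapped. Without wild-type replicate 2 the median difference was 0.023, with 27 of 46 members above 0. Poly-A control RNAs, which are added to the sample before labelling, averaged 0.62 on mutant replicate 2 and 0.65 on mutant replicate 4, against -0.22 to 0.052 on the other 6 cerebellum arrays. Without these 2 mutant arrays the median was 0.026, with 34 of 46 above 0. Hybridization controls averaged -0.78 on wild-type replicate 4, against -0.086 to 0.27 on the other cerebellum arrays. Without that wild-type array the median was 0.046, with 34 of 46 above 0. Whether either kind of control bears on the members was not tested. In bulk tissue, fewer cells of a type and less RNA per cell cannot be told apart.

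**Figure D2:**
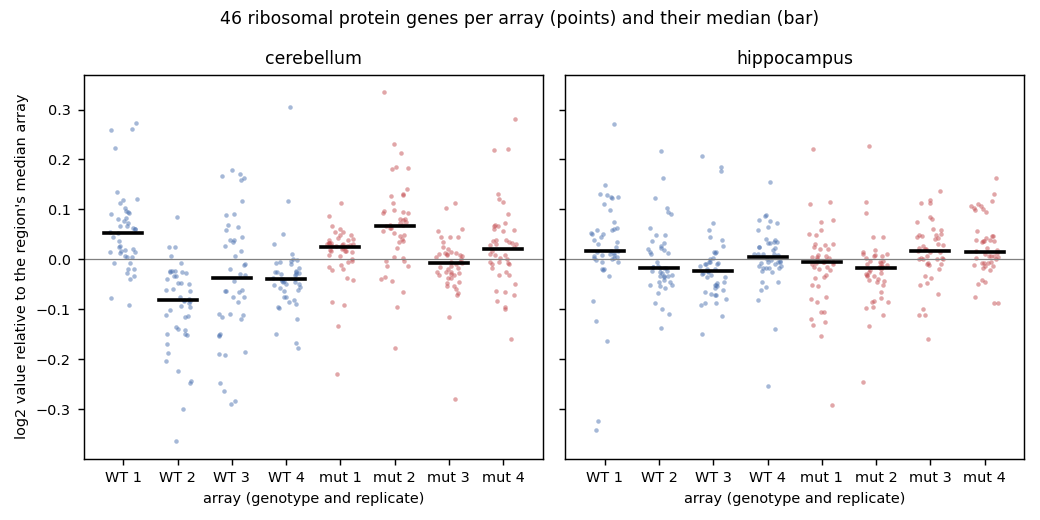
Log2 values of the 46 members on each array (points, spread sideways only for legibility) with their median (black bar), wild types in blue and mutants in red, for the cerebellum (left) and the hippocampus (right). In the cerebellum the bars run from -0.082 on wild-type replicate 2 to 0.067 on mutant replicate 2, and in the hippocampus all 8 lie between -0.0245 and 0.0166.

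Among large-subunit members the cerebellar difference of smallest p was that of Rpl27a, a structural protein of the large subunit. Its values were 0.11, 0.23, -0.028 and 0.28 on mutant replicates 1 to 4 and 0.0075, -0.060, -0.29 and 0.030 on the wild types. Mutant replicate 3 lay within the wild types, and wild-type replicate 3 stood below all others. The difference was 0.23 (SE 0.079), with a 95% interval of 0.060 to 0.40 and a limma adjusted p of 0.884. Rpl7, an RNA-binding protein of the large subunit, was at 0.066, 0.049, -0.038 and 0.034 in mutants and 0.017, -0.026, -0.19 and -0.15 in wild types. The mutants overlapped with wild-type replicates 1 and 2, and the difference was 0.11 (SE 0.054). Rpl13a, also known for holding back translation of inflammatory messages when it leaves the ribosome, was at -0.0002, 0.10, 0.0066 and 0.067 in mutants and 0.014, -0.15, -0.012 and -0.086 in wild types. Mutant replicates 2 and 4 were the highest and wild-type replicates 2 and 4 the lowest, and the other arrays overlapped, with a difference of 0.10 (SE 0.047). Rpl35, a protein near the exit of the peptide tunnel, was at 0.086, 0.18, -0.054 and 0.068 in mutants and 0.060, -0.19, -0.063 and -0.046 in wild types, a difference of 0.13 (SE 0.062). Mutant replicate 3 lay between wild-type replicates 3 and 4, and wild-type replicate 2 was the lowest. Rpl8, near the peptidyl transferase centre, and Rpl4, which lines the tunnel, had differences of 0.090 (SE 0.051) and 0.078 (SE 0.044). Rpl37, a zinc-binding protein of the large subunit, differed by 0.087 (SE 0.094), which was -0.013 without wild-type replicate 2, the array where it stood at -0.36.

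The lowest cerebellar difference was that of Rpl3l, a paralogue of Rpl3 known from heart and skeletal muscle. It was at 0.030, -0.10, -0.025 and -0.10 in mutants and 0.22, 0.025, -0.076 and 0.31 in wild types. Wild-type replicates 1 and 4 were high and replicates 2 and 3 overlapped with the mutants, a difference of -0.17 (SE 0.093) with an interval of -0.36 to 0.029. Of the other large-subunit members on this side, Rpl12, which forms the base of the stalk with Rplp0, was at -0.072 (SE 0.095), Rpl41 at -0.030 (SE 0.053) and Rpl19 at -0.0060 (SE 0.053). The difference of Rpl12 had opposite signs in the 2 age classes and was 0.11 within the younger animals.

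In the small subunit Rps27, a zinc-finger protein, had the smallest p. It was at 0.039, 0.18, -0.025 and 0.025 in mutants and 0.052, -0.14, -0.26 and -0.10 in wild types. Wild-type replicate 1 lay among the mutants and the 3 other wild types lay below all mutants, with a difference of 0.17 (SE 0.066), an interval of 0.027 to 0.31 and an adjusted p of 0.884. Rps14, which lies at the platform of the small subunit, had a difference of 0.10 (SE 0.048), with values of 0.027, 0.11, -0.0058 and 0.0094 in mutants and 0.027, -0.088, -0.15 and -0.027 in wild types. Mutant replicate 3 lay below wild-type replicate 1. The 3 lowest in the small subunit were Rps4x, whose gene lies on the X chromosome, at -0.019 (SE 0.058), Rps29 at -0.017 (SE 0.044) and Rps3, which also takes part in DNA repair, at -0.010 (SE 0.057). Rps16, near the decoding site, was among the widest members, at -0.23, 0.057, 0.11 and 0.030 in mutants and 0.27, -0.25, -0.25 and -0.030 in wild types. The highest array was a wild type and the lowest 2 were wild types as well, so its difference of 0.056 (SE 0.10) was under the spread between replicates.

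In the hippocampus the members showed no common direction. The difference was above 0 for 21 of 46 members, against 58.9% of all genes, with a median of -0.0071 for members and 0.020 for all genes. Large-subunit members had a median of 0.0044 with 12 of 24 above 0, and small-subunit members -0.014 with 9 of 22 above 0. In limma, 0 members and 0 genes (0%) had an adjusted p under 0.05, and at an unadjusted p under 0.05 there were 1 member and 1459 genes (8.03%). The smallest adjusted p of a member was 0.509. The array medians were -0.0052, -0.0176, 0.0162 and 0.0145 in mutants and 0.0166, -0.0171, -0.0245 and 0.0045 in wild types, and the groups overlapped. Without wild-type replicate 1 the median difference was 0.014, with 27 of 46 members above 0, and within the younger animals it was 0.039, with 33 above 0. Within the older animals it was -0.015, with 17 above 0, and with arrays re-centred on their medians -0.020, with 16 above 0.

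The member with an unadjusted p under 0.05 was Rps4l, a paralogue of Rps4x measured by 1 probe set. It was at 0.078, 0.23, 0.11 and 0.046 on the mutant arrays and -0.34, -0.14, -0.15 and -0.046 on the wild types. All 4 mutants lay above all 4 wild types, which held for 1 member and for 3.24% of all genes, while 0 members had all mutants below (1.52% of all genes). The mutant mean was 0.12 ± 0.079 and the wild-type mean -0.17 ± 0.12 (SD, n = 4), which gave a difference of 0.28 (SE 0.10) with an interval of 0.072 to 0.50 and an adjusted p of 0.509 in limma. In the cerebellum the same gene was at 0.029, 0.21, -0.28 and 0.056 in mutants and 0.10, -0.30, -0.029 and -0.18 in wild types. There the groups overlapped, with mutant replicate 3 next to the lowest array, and the difference was 0.11 (SE 0.10). Its relative Rps4x differed by -0.032 (SE 0.058) in the hippocampus. Wild-type hippocampus replicate 1, where Rps4l was lowest, was the array with the highest cerebellar neuron markers. Without that array the difference was 0.23, and the mutants still lay above the wild types. The range of Rps4l over the hippocampus arrays was the widest of the members, at 0.57 against a median of 0.17. Centred values hold no level, so whether its signal lay near background cannot be told.

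Of the other members with positive hippocampal differences, Rpl39, a short protein of the exit tunnel with its gene on the X chromosome, was at 0.11, 0.045, 0.075 and -0.042 in mutants and 0.014, -0.017, -0.087 and -0.014 in wild types. Mutant replicate 4 lay among the wild types, and the difference was 0.073 (SE 0.053). Rpl11, which binds Mdm2 when ribosome assembly fails, had 0.063 (SE 0.051). Rpl10a was at 0.052 (SE 0.048), Rpl35 at 0.052 (SE 0.062), Rps15 at 0.049 (SE 0.057), Rpl7 at 0.047 (SE 0.054) and Rps26, a protein at the messenger RNA exit, at 0.041 (SE 0.056). The limma adjusted p-values of these 7 members were 0.732 or more.

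Of the members with negative hippocampal differences, Rplp0, the stalk protein that anchors the P1 and P2 proteins, had the smallest p. It was at 0.024, -0.065, -0.047 and -0.014 in mutants and 0.27, -0.067, 0.014 and 0.018 in wild types. Only wild-type replicate 1 stood apart. The difference was -0.084 (SE 0.064) with a limma adjusted p of 0.75, and -0.014 without that array. Rpl14 was at -0.29, -0.0072, -0.034 and 0.0072 in mutants and -0.32, 0.16, 0.18 and 0.076 in wild types. Replicate 1 was low in both genotypes, and its difference of -0.11 (SE 0.12) was less than its standard error. Rpl37 was at -0.13, 0.0097, 0.14 and -0.088 in mutants and 0.15, 0.22, -0.0097 and -0.018 in wild types, with overlap and a difference of -0.10 (SE 0.094). The others were Rps20, also a binder of Mdm2, at -0.081 (SE 0.073), Rpl12 at -0.078 (SE 0.095), Rpl39l at -0.056 (SE 0.069), Rpsa at -0.044 (SE 0.053) and Rpl4 at -0.034 (SE 0.044).

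**Figure D3:**
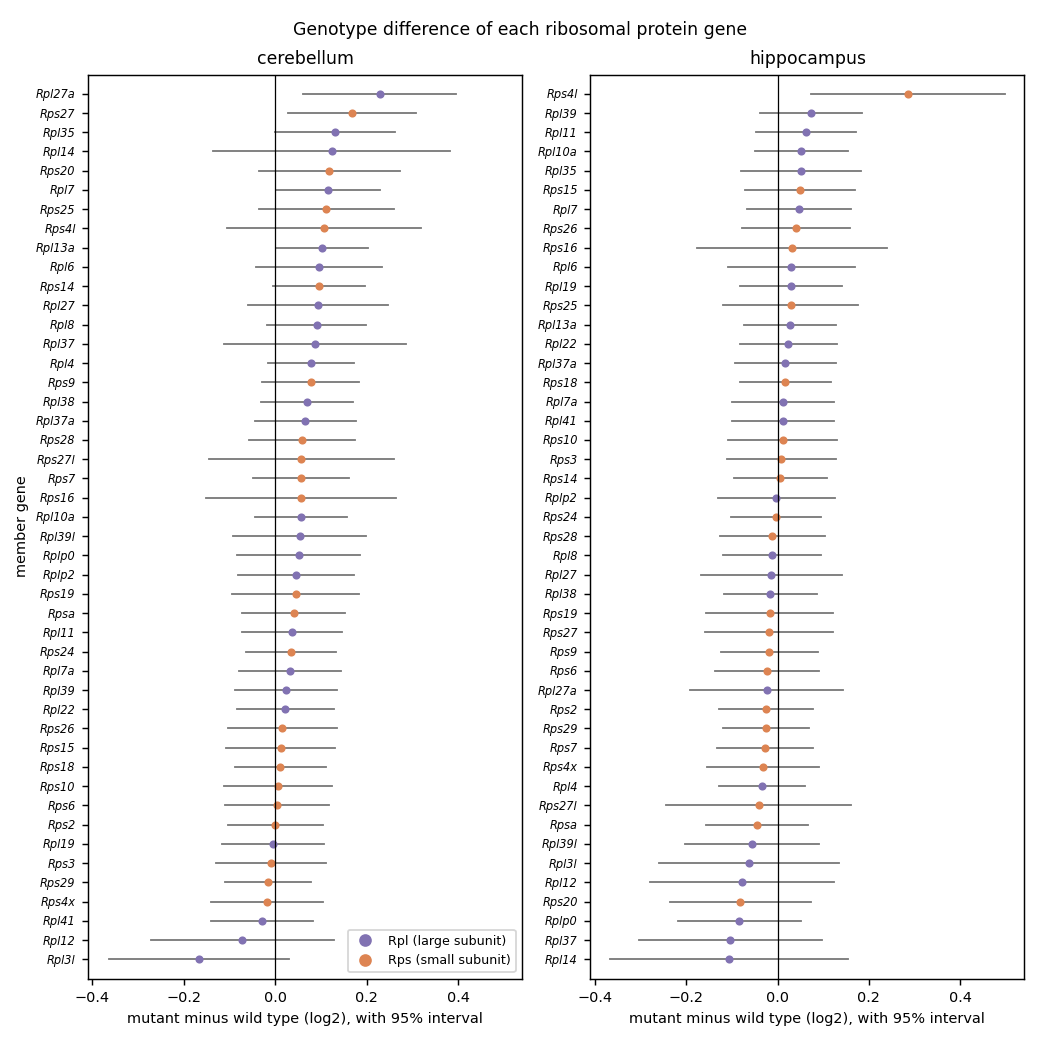
Genotype difference (log2, mutant minus wild type) of each member with its 95% interval from limma, sorted within the cerebellum (left) and the hippocampus (right), with purple for the large and orange for the small subunit. The cerebellar points reach from -0.17 to 0.23 with 39 of 46 above 0, and the hippocampal points from -0.11 to 0.28 with 21 above 0.

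Under the spread shared by all groups, the intervals bound what these arrays could have missed. In each region all 46 intervals lay within 0.5 log2 units of 0, a 1.41-fold change. Within 0.25 units, a 1.19-fold change, lay 34 in the cerebellum and 41 in the hippocampus. The median standard error of a member was 0.055, the same in each region because each gene had 1 spread for all groups. The median standard deviation of members within a group was 0.072 in the cerebellum and 0.059 in the hippocampus. The intervals do not show this difference.

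Members with special roles and paralogues were followed in both regions. The stalk protein Rplp0, which recruits elongation factors with P1 and P2, differed by 0.051 (SE 0.064) in the cerebellum. Its partner Rplp2 had 0.045 (SE 0.060) in the cerebellum and -0.0027 (SE 0.060) in the hippocampus. Rpsa, the small-subunit protein that is also known as a laminin receptor, had 0.040 (SE 0.053) in the cerebellum. In the pair Rpl39 and Rpl39l, where the second is known mainly from testis, the cerebellar differences were 0.023 (SE 0.053) and 0.053 (SE 0.069). In the pair Rps27 and Rps27l, of which the second is a p53 target, the second was at -0.0035, 0.19, -0.060 and -0.0046 in mutant and 0.12, -0.22, 0.17 and -0.17 in wild-type cerebellum. Wild-type values lay on both sides of the mutants, with a difference of 0.056 (SE 0.10). Rps27 and Rpl3l were among the members farthest from 0 in the cerebellum, as given above. In the hippocampus Rps27 had -0.018 (SE 0.066), Rps27l -0.041 (SE 0.10) and Rpl3l -0.062 (SE 0.093).

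Whether the genotype effect differed between regions was tested as the hippocampal minus the cerebellar difference. It was above 0 for 12 of 46 members, against 54.9% of all genes, with a median of -0.055 for members and 0.014 for all genes. In limma 0 members and 0 genes (0%) had an adjusted p under 0.05, and at an unadjusted p under 0.05 there were 1 member and 972 genes (5.35%). That member was Rpl27a, at -0.25 (SE 0.11) with an adjusted p of 0.867. Rps27 had -0.18 (SE 0.093), Rps20 -0.20 (SE 0.10) and Rpl4 -0.11 (SE 0.063). On the positive side Rps4l had 0.18 (SE 0.14), Rpl3l 0.10 (SE 0.13), Rpl39 0.050 (SE 0.074) and Rpl41 0.041 (SE 0.074). Without wild-type cerebellum replicate 2 the median was -0.027. Within the younger animals it was -0.013, with 21 above 0, and within the older ones -0.085, with 9 above 0. By sign, 18 members were higher in mutants in both regions, 4 lower in both, 21 higher in the cerebellum alone and 3 higher in the hippocampus alone.

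Averaged over both regions for each genotype and replicate number, the difference was above 0 for 34 of 46 members, against 58.7% of all genes, with medians of 0.022 and 0.014. In limma 0 members and 0 genes (0%) had an adjusted p under 0.05, and at an unadjusted p under 0.05 there were 1 member and 1546 genes (8.51%). The member was Rps4l at 0.20 (SE 0.061), with an interval of 0.059 to 0.33 and an adjusted p of 0.534. Rpl7, Rpl27a and Rpl35 had 0.081 (SE 0.039), 0.10 (SE 0.050) and 0.091 (SE 0.047). Rpl3l had -0.11 (SE 0.066), Rpl12 -0.075 (SE 0.076), Rps4x -0.025 (SE 0.041) and Rps29 -0.021 (SE 0.034).

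Age was compared as animals of 24 months or more (replicates 1 and 2) minus younger ones (replicates 3 and 4) across genotypes, so age and replicate number cannot be told apart. In the cerebellum the difference was above 0 for 30 of 46 members, against 52.6% of all genes, with medians of 0.029 and 0.0050. Without wild-type replicate 1 the median over members was 0.0033 with 23 above 0, and without wild-type replicate 2 it was 0.064 with 38 above 0. Microglial markers had a median age difference of 0.30, with 10 of 11 above 0, and their part in the members' values was not tested. In limma 0 members and 0 genes (0%) had an adjusted p under 0.05, and at an unadjusted p under 0.05 there were 2 members and 764 genes (4.21%). They were Rpl6, a large-subunit protein, at 0.14 (SE 0.058) and Rpl7 at 0.11 (SE 0.049), both with an adjusted p of 0.999. Rpl6 stood at 0.081, -0.024, -0.28 and -0.062 on the wild-type arrays and 0.024, 0.093, -0.053 and 0.028 on the mutants, and wild-type replicate 3 was the lowest. Rps27 had 0.12 (SE 0.063) and Rpl37a 0.086 (SE 0.051). On the negative side Rpl37 had -0.16 (SE 0.090), Rplp2 -0.085 (SE 0.060), Rpl39 -0.065 (SE 0.052) and Rps29 -0.044 (SE 0.046).

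In the hippocampus the age difference was above 0 for 16 of 46 members, against 45.3% of all genes, with medians of -0.014 and -0.0094. With 1 hippocampus array left out in turn, the median over members ran from -0.026 without wild-type replicate 3 to -0.0038 without wild-type replicate 2. It was 0.0024, with 24 above 0, without wild-type replicate 1 and mutant replicates 3 and 4. In limma 0 members and 0 genes (0%) had an adjusted p under 0.05, and at an unadjusted p under 0.05 there were 0 members and 1190 genes (6.55%). Rps3 had 0.10 (SE 0.053), Rpl39 0.056 (SE 0.052), Rplp0 0.048 (SE 0.064) and Rps25 0.049 (SE 0.073). Rps2 had -0.082 (SE 0.047), Rpl14 -0.17 (SE 0.12), Rps15 -0.061 (SE 0.057) and Rpl6 -0.062 (SE 0.058).

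Probe sets of 1 member often differed from each other. Among the 23 members with several, the genotype differences had opposite signs in 10 members in the cerebellum and 16 in the hippocampus. The median gap between the highest and the lowest probe set was 0.11 and 0.075 in the same order. Rps24, a small-subunit protein, had the widest gap, from -0.17 to 0.19 over 6 probe sets in the hippocampus. The cerebellar value of Rpl27a came mostly from 1 of its 2 probe sets. That probe set was at 0.082, 0.66, -0.082 and 0.37 in mutants and 0.14, -0.093, -0.44 and -0.087 in wild types, a difference of 0.38. The other was at 0.15, -0.20, 0.027 and 0.20 and -0.13, -0.027, -0.14 and 0.15, a difference of 0.079. Mutant replicate 2 was the highest of the 8 arrays on the first and the lowest on the second. The gap was 0.20 for Rpl41 in the hippocampus (-0.10 to 0.098) and 0.19 for Rps3 in the cerebellum (-0.13 to 0.069).

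The probe-set suffix tells how specific the probes are, and x_at marks probes that may bind other transcripts, which are frequent among ribosomal protein genes with their many processed copies. In the cerebellum the 40 x_at probe sets had a median difference of 0.069 with 34 above 0. The 26 a_at probe sets, which match several transcripts of 1 gene, had 0.046 with 24 above 0, and the 31 without such a mark 0.036 with 20 above 0. The 110 probe sets that list a ribosomal protein gene with other genes had a median of 0.066 with 101 above 0. In the hippocampus the same classes had medians of -0.0043, 0.018, -0.0032 and 0.0059. The signal of near-identical copies cannot be separated in such probe sets, and without x_at and s_at probe sets the cerebellar median over the 41 members left was 0.045. On wild-type cerebellum replicate 3 the classes parted most, with x_at at a median of 0.045 and unmarked probe sets at -0.065. The members spread most on that array, with a standard deviation of 0.12 over members.

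**Figure D4:**
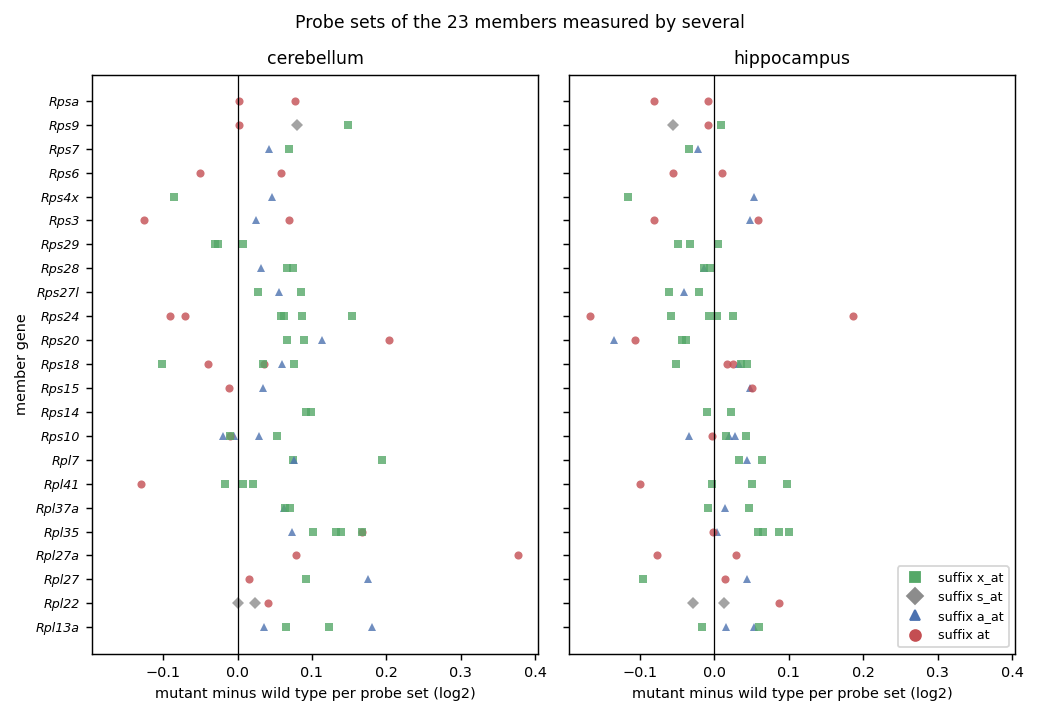
Genotype difference (log2, mutant minus wild type) of every probe set of the 23 members with several, by probe-set suffix, in the cerebellum (left) and the hippocampus (right). The points of 1 member often lie on both sides of 0, in 10 members in the cerebellum and 16 in the hippocampus, and the 2 probe sets of Rpl27a lie at 0.079 and 0.38 in the cerebellum.

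The genes around the cytosolic ribosome are given for comparison, and 0 genes of any list passed an adjusted p under 0.05 in limma in either region. Ribosome assembly factors, which process ribosomal RNA and load the proteins, had a cerebellar median of 0.064 with 53 of 67 above 0 (all genes 53.6%) and a hippocampal median of -0.046 with 19 of 67 above 0 (all genes 58.9%). Of them 9 had an unadjusted p under 0.05 in the cerebellum, all higher, and 5 in the hippocampus, 2 higher and 3 lower, against 5.39% and 8.03% of all genes. Znhit3, a snoRNP assembly factor, had 0.27 (SE 0.090) and Rrp9, a U3 snoRNP protein, -0.10 (SE 0.057) in the cerebellum. In the hippocampus Nop10, of the H/ACA snoRNPs, had 0.17 (SE 0.067) and the nucleolar protein Ncl -0.15 (SE 0.056). Without wild-type cerebellum replicate 2 the cerebellar median of the assembly factors was 0.051, with 53 above 0, and without mutant replicates 2 and 4 it was 0.038, with 51 above 0.

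The RNA polymerase I list, for the enzyme that transcribes ribosomal RNA, had medians of 0.077 (15 of 18 above 0) and -0.0020 (9 of 18). Without mutant cerebellum replicates 2 and 4 the first was 0.042, with 10 of 18 above 0. Without wild-type hippocampus replicate 1 the second was -0.020, with 5 of 18 above 0. The subunit Polr1c had 0.20 (SE 0.057) in the cerebellum and the shared subunit Polr2f 0.090 (SE 0.052) in the hippocampus. Ubtf, which opens ribosomal DNA, had -0.22 (SE 0.10) and -0.089 (SE 0.10) in the same order. The list of mTOR and other regulators of terminal oligopyrimidine messages had medians of -0.058 (4 of 19 above 0) and -0.039 (7 of 19). Of them 3 had an unadjusted p under 0.05 in limma in the cerebellum and 4 in the hippocampus, all lower. The shares of all genes were 5.39% and 8.03%. Rictor, of mTOR complex 2, had -0.24 (SE 0.074) and the kinase gene Rps6ka3 0.093 (SE 0.10) in the cerebellum. In the hippocampus Max, the partner of Myc, had -0.39 (SE 0.17) and the translation repressor Eif4ebp1 0.11 (SE 0.059).

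Translation initiation factors had medians of 0.020 (19 of 30 above 0) and -0.020 (14 of 30). Eif3e had 0.13 (SE 0.052) and Eif2s3x -0.18 (SE 0.081) in the cerebellum, and Eif2b5 0.14 (SE 0.048) and Eif2b3 -0.11 (SE 0.076) in the hippocampus. Elongation and termination factors with other terminal oligopyrimidine messages had 0.031 (10 of 17) and -0.014 (8 of 17). Without wild-type hippocampus replicate 1 the second was 0.0022, with 9 of 17 above 0. Nap1l1, a histone chaperone, had 0.12 (SE 0.054) and the neuronal elongation factor Eef1a2 -0.17 (SE 0.10) in the cerebellum, and Eef1d 0.16 (SE 0.049) and the release factor Gspt1 -0.11 (SE 0.059) in the hippocampus. Cytosolic aminoacyl-tRNA synthetases had 0.018 (15 of 20) and -0.0027 (10 of 20). Without wild-type hippocampus replicate 1 the second was 0.024, with 13 of 20 above 0. Apart from the synthetases and the elongation list, every list kept the sign of its hippocampal median without that array. Rars had 0.15 (SE 0.061) and Vars -0.12 (SE 0.061) in the cerebellum, and Sars 0.11 (SE 0.055) and Eprs -0.11 (SE 0.061) in the hippocampus.

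Genes of the p53 response that follows failed ribosome assembly had medians of 0.0048 (6 of 10) and -0.0019 (5 of 10). Ccng1 had 0.072 (SE 0.090) and Sesn2 -0.11 (SE 0.075) in the cerebellum, and Eda2r 0.073 (SE 0.065) and Pmaip1 -0.42 (SE 0.15) in the hippocampus. Ribosomal protein genes that the naming rule does not take had medians of 0.055 (4 of 4) and -0.043 (1 of 4). Rps3a1 had 0.086 (SE 0.043) in the cerebellum, and Fau 0.023 (SE 0.053) and Rpl22l1 -0.11 (SE 0.081) in the hippocampus. Mitochondrial ribosomal proteins, which serve the messages of mitochondrial DNA, had medians of 0.083 (70 of 76) and 0.038 (65 of 76). Of them 8 had an unadjusted p under 0.05 in the cerebellum and 2 in the hippocampus, all higher, against 5.39% and 8.03% of all genes. Mrps35 had 0.24 (SE 0.074) and Mrpl37 -0.053 (SE 0.061) in the cerebellum, and Mrpl17 0.14 (SE 0.060) and Mrps18c -0.12 (SE 0.078) in the hippocampus. On the 8 cerebellum arrays the median of the mitochondrial list was lowest on wild-type replicate 2, at -0.11, and highest on mutant replicate 2, at 0.10, which were also the lowest and highest arrays of the cytosolic members. Without wild-type cerebellum replicate 2 its median difference was 0.056, with 64 of 76 above 0, and without mutant cerebellum replicates 2 and 4 it was 0.034, with 57 above 0.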

How the data were processed

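Total RNA from 16 tissue samples was extracted with Trizol and hybridised as biotin-labelled cRNA to Affymetrix arrays (per the labels' protocols). The submitters' processing notes name GCOS 4.0. How values were summarised, normalized and centred is not stated there. The values deposited by the authors are on a log scale without a stated base and were taken as log2. Of 45101 probe sets, 64 controls and 133 with an empty value were left out. Of the 44904 others, 34843 had 1 symbol in the platform annotation, and a gene's value is the mean over its probe sets (18168 genes). Centred values allow no filter on dim probe sets.

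All genes entered 1 limma fit (version 3.58.1, R 4.3.3), with 1 mean per group, two-sided tests and Benjamini-Hochberg adjustment over all genes at 0.05. Intervals are 95% and use the model's degrees of freedom. Precision is limited by the number of arrays. The scripts were tested on simulated data. Members and gene lists were chosen with earlier results of these data known. Named members were those with any adjusted p under 0.05 and the 8 of smallest p in each direction per region. The rule added 4 in each direction for the other comparisons, the 3 of widest range, the 4 of widest probe-set disagreement, the stalk, Rpsa and paralogue members, and the gene of smallest p in each direction per list and region. Start sites come from RefSeq, build GRCm38.p6, and identifiers matched for all 46 members. Cell type markers were averaged per array. Replicate numbers were tested as a pairing of mutant with wild type within each region, and the alternatives tried are given with the limits.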

Additional observations from a re-analysis of the deposited data

Results flagged for a closer look

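Within groups of 4 arrays, a single value far from the other 3 relative to the group's range was looked for in 144 groups of values, from the 35 named members and the median over the members. It was found in 4, and chance alone gives about 1 in 20 groups. Rpl11 stood at 0.14 on wild-type cerebellum replicate 1, with the other 3 wild types between -0.061 and -0.039. Rpl14 stood at -0.29 on mutant hippocampus replicate 1, with the others between -0.034 and 0.0072. Rpl37a stood at 0.11 on mutant hippocampus replicate 4, with the others between -0.010 and -0.0085. Rps4x stood at -0.16 on wild-type hippocampus replicate 1, the array highest in cerebellar neuron markers, with the others between 0.011 and 0.027. On that array its x_at probe set was at -0.32 and its a_at probe set at -0.0079. The same x_at probe set was at -0.35 and -0.29 on mutant hippocampus replicates 1 and 3. The part of the markers in these values was not tested. The difference between regions was past the adjusted threshold in limma for 0 members, with 1 at an unadjusted p under 0.05.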

How the results depend on the processing

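No member passed an adjusted p under 0.05 in limma in any comparison under any alternative. Medians over the 46 members stayed above 0 in the cerebellum under every alternative, from 0.023 to 0.082. The hippocampal median was 0.039 within the younger animals, with 33 members above 0, and from -0.0095 to 0.014 with 1 array left out (highest without wild-type replicate 1). It was -0.020 with arrays re-centred (16 above 0), -0.0145 with quantile normalization and -0.015 within the older animals (17 above 0). The average over regions was 0.043 within the younger animals and from 0.0080 to 0.040 with 1 replicate left out. With 1 array left out, 27 to 42 members were above 0 in the cerebellum and 18 to 27 in the hippocampus. Counts over all genes, 0 in every comparison as reported, were for the hippocampal genotype 1 with quantile normalization, 2 with arrays scaled to one spread, 2 with robust variance, 1 without wild-type replicate 1 and mutant replicates 3 and 4, 4 within the younger animals and 0 to 7 with 1 array out. For the difference between regions they were 1 without these 3 hippocampus arrays and 0 to 1 with 1 array out. For cerebellar age they were 4 with each region fitted alone, 6 with quantile normalization, 1 with arrays scaled, 5 without the 3 hippocampus arrays and 0 to 9 with 1 array out. For hippocampal age they were 27 with quantile normalization, 3 with arrays re-centred, 24 with arrays scaled, 4 with robust variance, 5 without the 3 hippocampus arrays and 0 to 7 with 1 array out. The deviations of the mutant and wild-type arrays of the same number were correlated within each region. The correlations ran from -0.19 to 0.048 in the cerebellum and -0.067 to 0.23 in the hippocampus. Arrays of different regions were not compared in this way, so whether they share an animal was not tested. The test of the region difference took all arrays as separate samples. With the replicate number as a block, 0 genes were called and the medians over members were 0.054 and -0.0071. Of 115 differences of named genes, 77 kept their sign in every alternative and 38 did not. With arrays re-centred on their medians, hippocampus differences turned to Rpl41 -0.0017 and Rps3 -0.0047. With arrays scaled to one spread, cerebellum differences turned to Rps16 -0.0026. With arrays scaled to one spread, hippocampus differences turned to Rpl41 -0.0022 and Rps3 -0.0015. With medians over probe sets, cerebellum differences turned to Rps3 0.025. Without mutant cerebellum replicates 2 and 4, cerebellum differences turned to Rps3 0.016, Rps27l -0.0047 and Ccng1 -0.024. Without x_at and s_at probe sets, cerebellum differences turned to Rps4x 0.047 and Rps24 -0.081. Without x_at and s_at probe sets, hippocampus differences turned to Rps24 0.0095 and Rpl41 -0.10. Without x_at and s_at probe sets, average differences turned to Rps4x 0.050. With quantile normalization, hippocampus differences turned to Rpl41 -0.0068 and Rps3 -0.0055. Without wild-type hippocampus replicate 1 and mutant replicates 3 and 4, hippocampus differences turned to Rps15 -0.0005, Rplp2 0.015, Rps24 0.021, Fau -0.0092 and Eda2r -0.011. Without wild-type hippocampus replicate 1 and mutant replicates 3 and 4, hippocampal age differences turned to Rplp0 -0.083 and Rpl14 0.032. Within the older animals, cerebellum differences turned to Rpl41 0.023, Rps16 -0.10 and Rps6ka3 -0.12. Within the older animals, hippocampus differences turned to Rpl35 -0.013, Rps26 -0.0067, Rpl39l 0.042, Rpl3l 0.12, Rps24 0.0018, Rpl27a 0.038, Rpl41 -0.015, Rps3 -0.058, Fau -0.035 and Eda2r -0.011. Within the older animals, region difference values turned to Rpl39 -0.016 and Rpl41 -0.038. Within the younger animals, cerebellum differences turned to Rpl12 0.11, Rpl19 0.020, Rplp2 -0.021, Rpl39 -0.049 and Rps27l -0.031. Within the younger animals, hippocampus differences turned to Rpl37 0.038, Rpl12 0.090, Rplp2 0.0087, Rps27 0.035, Rps27l 0.13 and Rpl22l1 0.015. Within the younger animals, region difference values turned to Rpl3l -0.068. Within the younger animals, average differences turned to Rpl12 0.10. With 1 array left out in turn, cerebellum differences with both signs were Rpl12 (-0.15 to 0.0036), Rps29 (-0.031 to 0.0073), Rps3 (-0.033 to 0.033), Rpl19 (-0.017 to 0.011), Rplp2 (-0.0042 to 0.11), Rpl39 (-0.0056 to 0.049), Rps27l (-0.0094 to 0.12), Rpl37 (-0.013 to 0.16), Rps16 (-0.0062 to 0.17) and Rps6ka3 (-0.038 to 0.19). With 1 array left out in turn, hippocampus differences with both signs were Rplp2 (-0.017 to 0.014), Rps27 (-0.055 to 0.0071), Rps27l (-0.12 to 0.0077), Rps24 (-0.020 to 0.015), Rpl27a (-0.067 to 0.0063), Rpl41 (-0.0076 to 0.041), Rps3 (-0.022 to 0.046) and Fau (-0.0014 to 0.058). With 1 array left out in turn, average differences with both signs were Rps4x (-0.048 to 0.0001). With 1 array left out in turn, hippocampal age differences with both signs were Rplp0 (-0.027 to 0.11). The causes were not tested.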
